A study of Mus musculus with 12 samples.

Results

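The LSD1 peaks described here lay away from promoters and carried no H3K4me2 peak in control liver. They were selected on measured values, namely the peak calls themselves. A member is an entry of the LSD1 ChIP-seq peak list whose center is more than 1 kb from every transcription start site (TSS) of a protein-coding gene and whose interval overlaps no interval of the control H3K4me2 list. Of 14584 LSD1 peaks, 6534 were members (44.8%), which is 68.0% of the 9614 distal LSD1 peaks. The remaining LSD1 peaks were 3080 distal peaks with control H3K4me2, 4581 peaks within 1 kb of a TSS with control H3K4me2 and 389 peaks within 1 kb of a TSS without it.

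LSD1 was precipitated from the liver of wild-type C57BL/6 mice. H3K4me2 was precipitated from the liver of LSD1 fl/fl mice of the same strain that had received AAV8-TBG-GFP (control) or AAV8-TBG-Cre (LSD1-LKO) as adults, so the H3K4me2 control mice carried the floxed alleles and a virus and the LSD1 mice did not. The Tbg promoter directs Cre to hepatocytes, and other liver cells of LSD1-LKO mice keep LSD1. Each list holds the peaks shared by 2 ChIP libraries of whole liver, and the labels do not state age or diet for these libraries or whether a library is 1 animal or a pool. The LSD1, control H3K4me2 and LSD1-LKO H3K4me2 lists held 14584, 43891 and 50675 entries. No reads were used, so library depth is unknown. Below, the first and the second library are the 2 LSD1 libraries in the order in which each entry names them.

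LSD1 is a histone demethylase that removes methyl groups from mono- and dimethylated H3K4, usually as part of a complex with CoREST and histone deacetylases. Transcription factors such as REST and GFI1 can bring it to DNA. H3K4me2 marks active and poised promoters and enhancers, and it is one of the forms of H3K4 methylation that LSD1 acts on. Distal regions with the mark in liver are mostly enhancers of hepatocytes, which bind factors such as HNF4A, FOXA and C/EBP. MACS gives for every peak the fold enrichment of ChIP over the control library, a −log10 p-value and a −log10 q-value, the q-value being the p-value adjusted for the number of positions tested.

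Centers of 6 of the strongest members are shown because they differ in kind. Each is 200 bases of the plus strand of GRCm38 (mm10), 5′ to 3′, and capitals mark bases that the assembly masks as repeats. Members are named after the nearest protein-coding gene. The Esp38 member is at chr17:39846045-39846244, the Anxa3 member at chr5:96846894-96847093, the Cyp2u1 member at chr3:131317789-131317988, the Hsd17b3 member at chr13:63952396-63952595, the Ermard member at chr17:15134831-15135030 and the Cdc42ep1 member at chr15:78840230-78840429.
Esp38: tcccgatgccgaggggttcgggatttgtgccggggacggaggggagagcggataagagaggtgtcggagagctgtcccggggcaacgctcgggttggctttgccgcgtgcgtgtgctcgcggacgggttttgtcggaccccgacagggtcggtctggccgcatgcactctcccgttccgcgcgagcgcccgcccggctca
Anxa3: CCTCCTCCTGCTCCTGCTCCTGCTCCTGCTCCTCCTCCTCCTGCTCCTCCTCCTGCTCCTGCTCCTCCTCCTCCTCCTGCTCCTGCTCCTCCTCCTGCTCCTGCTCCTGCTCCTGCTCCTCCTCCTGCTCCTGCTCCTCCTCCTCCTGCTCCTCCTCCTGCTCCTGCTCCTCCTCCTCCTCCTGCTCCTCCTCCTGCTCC
Cyp2u1: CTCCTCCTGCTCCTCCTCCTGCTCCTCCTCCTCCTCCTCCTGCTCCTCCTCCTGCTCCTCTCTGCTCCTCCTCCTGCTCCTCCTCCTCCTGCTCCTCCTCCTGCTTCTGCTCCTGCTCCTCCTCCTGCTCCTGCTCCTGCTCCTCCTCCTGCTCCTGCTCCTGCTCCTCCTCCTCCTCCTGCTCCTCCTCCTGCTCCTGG
Hsd17b3: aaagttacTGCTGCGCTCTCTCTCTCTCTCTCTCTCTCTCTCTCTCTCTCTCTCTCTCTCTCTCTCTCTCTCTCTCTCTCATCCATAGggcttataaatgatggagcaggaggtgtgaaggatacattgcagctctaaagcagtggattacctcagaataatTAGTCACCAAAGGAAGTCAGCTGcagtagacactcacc
Ermard: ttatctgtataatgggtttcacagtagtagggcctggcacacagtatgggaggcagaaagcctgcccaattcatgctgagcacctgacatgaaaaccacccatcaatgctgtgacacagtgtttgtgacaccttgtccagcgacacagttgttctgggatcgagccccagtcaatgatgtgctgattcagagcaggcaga
Cdc42ep1: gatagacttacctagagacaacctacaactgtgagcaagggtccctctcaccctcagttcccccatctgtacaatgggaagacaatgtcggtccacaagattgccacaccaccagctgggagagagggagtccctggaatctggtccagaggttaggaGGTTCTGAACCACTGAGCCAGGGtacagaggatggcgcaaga

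The Anxa3 and Cyp2u1 centers were tandem arrays of cytosine-rich triplets over all 200 bases. The Hsd17b3 center was masked over 103 bases, most of them a CT dinucleotide run. The Esp38 and Ermard centers held no masked base, and the Cdc42ep1 center held 23.

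The strongest member by the −log10 p-value of its weaker library spanned 5352 bp at chr17:39843469-39848820. Its fold enrichment was modest, 2.77 in the first library and 1.91 in the second, while its −log10 p-values were 71.2 and 24.3. The interval is 104 kb from the TSS of Esp38, which encodes an exocrine gland peptide. It covers the RefSeq locus Rn18s-rs5 (39846354 to 39848202), a sequence related to 18S ribosomal RNA, and overlaps the GENCODE rRNA entry CT010467.1. Ribosomal RNA genes are present in cells as long arrays that the assembly mostly leaves out, and 15.2% of the 31-base words (31-mers) of this interval occurred more than once in the assembly.

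The next members were narrower than the Esp38 interval and higher in fold enrichment. Those named in this paragraph spanned 489 to 1807 bp, above the members' median width of 348 bp. The Anxa3 member, 4.996 kb downstream of the TSS of the annexin gene Anxa3, reached a fold enrichment of 9.95 and 9.16. The Zmat4 member, in an intron of the zinc finger gene Zmat4, reached 7.80 and 8.19. The Cyp2u1 member, 14.7 kb upstream of a cytochrome P450 gene, reached 5.70 and 8.90. In these 3 members, 60.1% to 71.8% of the 31-mers occurred more than once in the genome. The member nearest to Nmi, which encodes an interactor of N-Myc, had 88.4% repeated 31-mers and a fold enrichment of 8.29 and 3.77. The member 11.5 kb upstream of Ndufv1, a gene for a complex I subunit of the respiratory chain, was a fully masked tandem array with 53.1% repeated 31-mers and a fold enrichment of 9.88 and 5.73.

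In the other 6 of the 12 strongest, the share of repeated 31-mers lay between 0% and 37.7%. The Ermard member had no repeated 31-mer and a fold enrichment of 10.2 and 6.73. The Cdc42ep1 member, 2.29 kb upstream of a gene for a CDC42 effector, had 1.81% repeated 31-mers and a fold enrichment of 5.01 and 8.72. The Cndp1 member, in an intron of a carnosine dipeptidase gene, had 1.14% and a fold enrichment of 6.88 and 6.15. The Fam92b member had 0.189% and a fold enrichment of 5.68 and 6.38. The Fam19a3 member had 37.7% and a fold enrichment of 7.05 and 6.77. The Hsd17b3 member had 10.4% and a fold enrichment of 8.07 and 7.70. By the ratio of their fold enrichments, the libraries were closest to each other in the Fam19a3, Hsd17b3 and Zmat4 members and farthest apart in the Nmi, Cdc42ep1 and Ndufv1 members.

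Tandem arrays of the kind shown for Anxa3 were then counted, a choice made after these sequences were seen. Windows of 500 bp at peak centers were searched on both strands for at least 3 matches of CTCCTGCTC, overlaps included. Of the 6534 members, 56 held such an array (0.857%, 95% CI 0.661 to 1.11), against 6 of 3080 distal peaks with control H3K4me2 (0.195%). The comparison genome was every base more than 1 kb from a protein-coding TSS and outside control H3K4me2 intervals, 2562 Mb in all, and was also sampled as 25462 windows of 500 bp on a regular grid with a step of 100 kb. Of these grid windows, 3 held such an array (0.0118%). The arrays were found in 26 of the 653 strongest members (3.98%) and in 4 of the 12 strongest, those nearest to Anxa3, Zmat4, Cyp2u1 and Nmi. Of the 56 members with an array, 4 overlapped an H3K4me2 interval of the LSD1-LKO list (7.14%), against 17.7% of all members. That count is small, no interval is given for it, and it is not read as a difference. Plain CT runs were found in 2.72% of members and 3.19% of grid windows, and CA runs in 5.92% and 6.76%.

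As a class the members were weak peaks. Their median fold enrichment was 2.71 in the first library (quartiles 2.35 and 3.17) and 2.79 in the second (2.42 and 3.26), against 3.07 and 3.28 for distal peaks with control H3K4me2. The median −log10 p-value was 2.90 and 2.97, against 3.63 and 4.10. The p-value exceeded 0.01 for 11.5% of members in the first library and 15.3% in the second, against 5.94% and 6.72%. The quartile ranges of both classes overlapped in both libraries.

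A q-value at or below 0.05 in both libraries was reached by 316 members (4.84%, 95% CI 4.34 to 5.38), against 14.4% of all LSD1 peaks and 506 of 3080 distal peaks with control H3K4me2 (16.4%). Members minus distal peaks with the mark differed by −11.6 percentage points (95% Newcombe interval −13.0 to −10.2). Peaks are not replicates of a mouse, and all intervals given here cover counting error only. In both libraries, 235 members (3.60%) had p-values no larger than 1e-05, as had 12.8% of distal peaks with the mark.

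**Figure D1:**
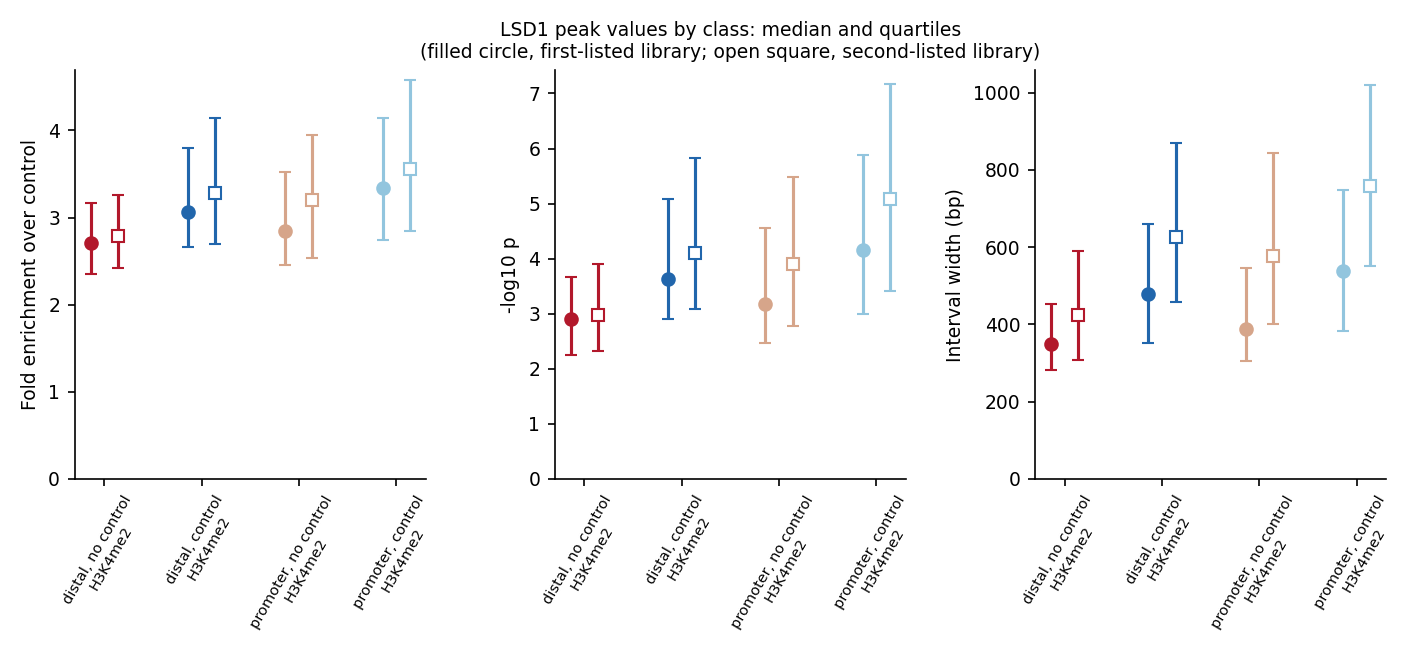
Fold enrichment, −log10 p-value and interval width (bp) of LSD1 peaks in each of the 4 classes, with points at the median and bars at the quartiles, filled circles for the first library and open squares for the second. The members (red) have the lowest medians in all 3 panels, 2.71 and 2.79 for fold enrichment, and their bars overlap those of the other classes. Width is partly set by the rule, which bars overlap with a control interval.

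The share of members was lower among stronger peaks. When the list was divided into 10 bins of equal size by the −log10 p-value of the weaker library, members made up 67.3% of the weakest bin (values 1.30 to 1.83) and 13.5% of the strongest (5.25 to 34.05). Promoter peaks with control H3K4me2 had the opposite order, 15.6% and 60.6%. The share of distal peaks with the mark lay between 11.4% and 28.1% in the 10 bins. Peaks with equal p-values were ordered by position, so neighboring bins with the same limit value are not distinct in strength.

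**Figure D2:**
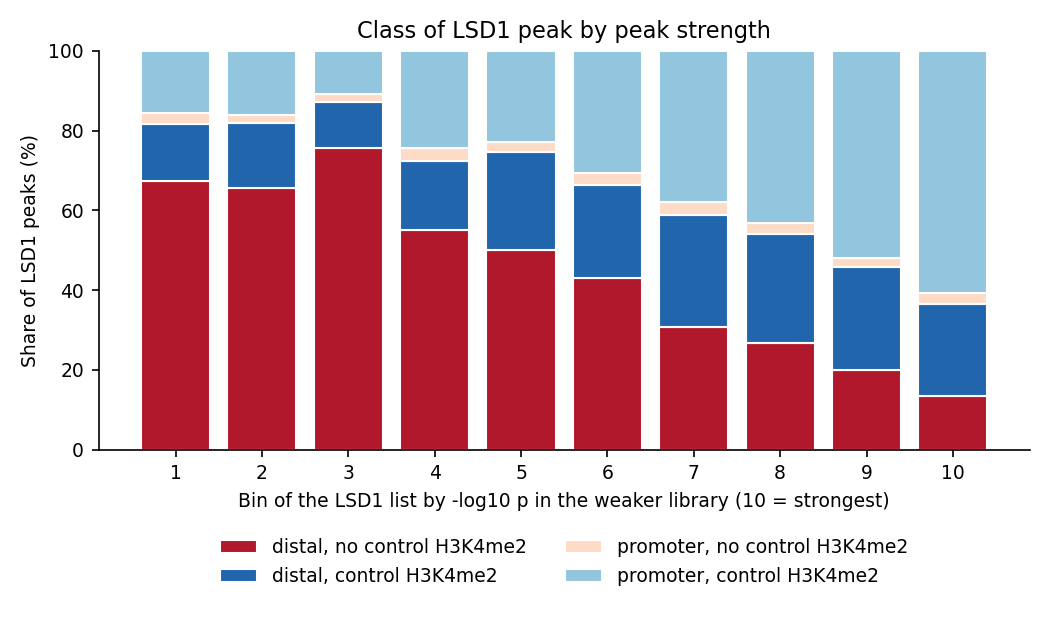
Share of LSD1 peaks (%) in each class by bin of the LSD1 list, 10 bins of equal size ordered by the −log10 p-value of the weaker library from weakest (1) to strongest (10). The members (red) go from 67.3% in the weakest bin to 13.5% in the strongest, with a maximum of 75.7% in bin 3.

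Many members had identical values. The fold enrichment and −log10 p-value of the first library took 323 distinct pairs over the 6534 members, and the commonest pair, 2.373 and 2.253, was held by 729 members (11.2%). In the second library the commonest pair, 2.47 and 2.39, was held by 500 members (7.65%). The 20 commonest pairs covered 57.3% of members in the first library and 49.3% in the second. Fold enrichment is computed from whole read counts, so peaks with equal counts over an equal background take the same value.

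Members were also narrow. Widths had a median of 348 bp and 425 bp in the first and second library, against 479.5 and 626.5 bp for distal peaks with the mark. The narrowest interval in the list was 283 bp in the first library and 295 bp in the second, and 30.3% and 22.5% of members had exactly that width, against 10.1% and 3.86% of distal peaks with the mark. The rule used the first-library interval, and a narrow interval is less likely to overlap a control interval. The width contrast is thus partly set by the rule, and its size apart from the rule was not tested. The peak names of the list were numbered up to 180723 in the first library and 175148 in the second. That many intervals of the narrowest width would cover 1.93% and 1.95% of the genome, and of the members' mean width 2.71% and 3.29%.

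The positions in the 2 libraries were compared by interval centers. In members the centers were a median of 96.0 bp apart (quartiles 46.5 and 150). On a scale on which 0% is the same center and 100% is the distance at which 2 intervals of these widths stop touching, the median was 23.2% in members and 21.5% in distal peaks with the mark. No value for pairs that overlap by position alone stands beside these medians. Rank agreement of fold enrichment between the libraries was weak in both classes, with Spearman's rho of 0.21 over the members and 0.18 over distal peaks with the mark, given as a description across peaks of the same 2 libraries.

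Repeats were commoner in members than in other LSD1 peaks but less common than in the comparison genome. Over 50% of the 31-mers occurred more than once in 708 members (10.8%, 95% CI 10.1 to 11.6), against 5.97% of all LSD1 peaks, 88 distal peaks with control H3K4me2 (2.86%) and 17.1% of grid windows. Members minus distal peaks with the mark differed by 7.98 percentage points (95% Newcombe interval 7.001 to 8.92). No repeated 31-mer was found in 3911 members (59.9%). The median copy number of the 31-mers was above 10 in 463 members (7.09%). Over 50% of the central 500 bp was masked in 18.1% of members, 3.67% of distal peaks with the mark and 28.3% of grid windows. No LSD1 peak contained a 31-mer of the mitochondrial genome, which is a known source of signal at nuclear copies of mitochondrial DNA.

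The base composition of members lay between the comparison genome and marked distal peaks. The median GC content of the central 500 bp was 45.2% in members, 41.2% in grid windows, 49.2% in distal peaks with the mark and 65.4% in promoter peaks with the mark. The observed over expected frequency of CpG had a median of 0.17, 0.15, 0.24 and 0.82 in the same order. Values above 0.6, typical of CpG islands, were found in 1.24% of members and 11.7% of distal peaks with the mark.

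Members were shifted from intergenic sequence toward genes, but less than distal peaks with the mark. The center was intergenic in 2911 members (44.6%, 95% CI 43.3 to 45.8), against 54.95% of the comparison genome and 35.7% of distal peaks with the mark. It was in an intron of a protein-coding gene in 2808 members (43.0%), against 34.7% of the comparison genome. Coding exons held 119 members (1.82%), untranslated exons 122 (1.87%) and exons of non-coding genes or transcripts 179 (2.74%), and these shares of the comparison genome were 1.14%, 1.28% and 1.815%. Members minus distal peaks with the mark differed by 8.84 points for intergenic centers (95% Newcombe interval 6.75 to 10.9) and by −3.62 points for exons of non-coding genes or transcripts (−4.61 to −2.71).

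The median distance from a member to the nearest protein-coding TSS was 30.7 kb (quartiles 11.04 and 102 kb), against 14.9 kb for distal peaks with the mark. Members were 1.53 times as frequent as the comparison genome at 1 to 5 kb and 0.514 times as frequent beyond 500 kb. Still, 360 members (5.51%) lay beyond 500 kb, against 12 distal peaks with the mark (0.390%). Upstream of the nearest TSS were 45.3% of members. A TSS of a lncRNA, pseudogene, small RNA or non-coding transcript of a protein-coding gene lay within 1 kb of 377 members (5.77%) and of 461 distal peaks with the mark (14.97%).

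**Figure D3:**
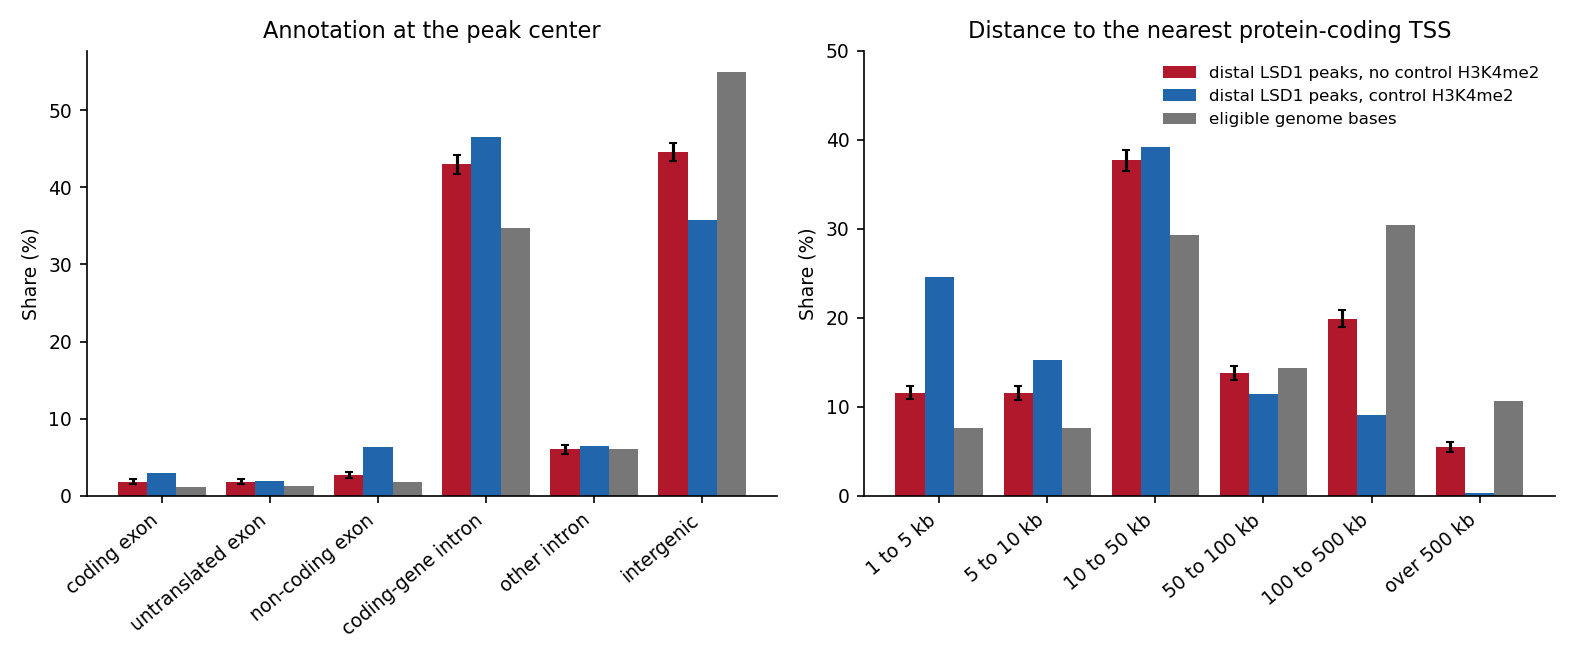
Share (%) of members (red, with 95% Wilson intervals), of distal LSD1 peaks with control H3K4me2 (blue) and of bases of the comparison genome (grey), by annotation at the peak center (left) and by distance to the nearest protein-coding TSS (right). Intergenic centers make up 44.6% of members, between 35.7% of distal peaks with the mark and 54.95% of the comparison genome.

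The 3 members closest to a TSS, nearest to Aoc1 (1001 bp), Vmn2r1 (1004 bp) and Gatm (1024 bp), had fold enrichments of 2.23 to 3.32 in the first library and 1.91 to 2.47 in the second. The 3 unmarked LSD1 peaks just inside 1 kb, nearest to Gm19668 (994 bp), Rcan2 (987 bp) and Gramd1c (985 bp), had 2.34 to 2.64 and 1.94 to 2.47. At the limit set by H3K4me2, members near Tkt, Tmem200b and Mkln1 touched a control H3K4me2 interval without sharing a base, and distal peaks near Sbno2, Aatk and Arid1b shared 1 base and were not members.

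Members were spread over the chromosomes at 2.30 per Mb (chromosome 14) to 3.63 per Mb (chromosome 19) of the comparison genome on the 19 autosomes. Chromosome X held 47 members, 0.292 per Mb. The X chromosome was also low in the lists as a whole, with 0.912% of LSD1 peaks, 1.49% of control and 1.12% of LSD1-LKO H3K4me2 peaks on 6.18% of the genome. All 7 LSD1 peaks of chromosome Y were members, and the median share of repeated 31-mers among them was 100%. Of these, 5 had the same second-library fold enrichment of 2.96, among them the members nearest to Sly and Ssty2, multicopy genes of the testis. The median distance from a member to the next was 95.5 kb, and 11.6% had another within 10 kb, against 24.8% of distal peaks with the mark. Groups of 3 or more members spaced by at most 10 kb numbered 33, and none had more than 4 peaks. A group of 4 lay in introns of St3gal5, with centers from chr6:72141338 to 72149321 and fold enrichments of 2.34 to 3.32 in the first library and 2.03 to 3.85 in the second.

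The nearest protein-coding genes were 4370, of which 3036 had 1 member and 89 had 5 or more. For 2524 of them no other class of LSD1 peak had the same nearest gene. Such a count rises with class size, and members were the largest class. Without the same count for the other classes, it is not read as a set of genes particular to members. Most members were nearest to Adgrl2, a latrophilin receptor gene with 11 members over 2318 kb of nearest sequence, and Tbl1xr1, a subunit gene of nuclear receptor corepressor complexes with 10 over 2248 kb. Next came 1190002N15Rik, Acvr2a (an activin receptor), Pik3r1 (the regulatory subunit of phosphoinositide 3-kinase) and St3gal5 (a ganglioside synthase) with 8 each. Per length of nearest sequence the order changed, with 50.6 members per Mb at St3gal5 and 4.75 at Adgrl2, against 2.55 over the comparison genome. Scarb1, the hepatic receptor for high-density lipoprotein, had 7 members at 62.4 per Mb and was singled out after its value was seen. The strongest Scarb1 member, 45088 bp from the TSS, had a fold enrichment of 5.70 and 6.77.

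Genes of liver identity were the list with the largest share of members relative to its length. The 50 listed genes for liver transcription factors, secreted proteins and liver metabolism were nearest to 61 members (0.934%, 95% CI 0.728 to 1.20) and made up 0.260% of the comparison genome, a ratio of 3.59. The same list held 54 distal peaks with the mark (1.75%). Prox1, a transcription factor of hepatocyte development, had 6 members, Apob, the apolipoprotein of very low-density lipoprotein, had 5, and Ahsg, which encodes fetuin A, and Cebpb, a C/EBP factor, had 4 each. The 6 Prox1 members had fold enrichments of 1.80 to 6.45 in the first library and 2.16 to 4.24 in the second, 4 of them lay in introns and 2 overlapped an LSD1-LKO interval. Hnf4a, Onecut1, Ppara, Apoh, Cps1 and Tat had 3 each. The strongest members of the list were nearest to Cebpb (fold enrichment 4.26 and 4.31), Foxa2 (4.75 and 5.45) and G6pc, the glucose-6-phosphatase gene (4.23 and 7.90). Of the 61, 19 overlapped an LSD1-LKO H3K4me2 interval (31.1%), against 17.7% of all members. No interval is given for this share, and it was not compared at equal distance to control H3K4me2. It is not read as a trait of these genes.

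The other lists were smaller or nearer to their length. Genes known for REST sites in neurons were nearest to 13 members, a ratio of 0.700, and to 1 distal peak with the mark. Scg2, a secretogranin gene, had the strongest of these (6.01 and 3.03), followed by 2 of the 3 near Bdnf, the gene of a neurotrophin (3.82 and 2.85, and 3.16 and 2.96). Genes of LSD1 and its partners were nearest to 6 members, a ratio of 1.73, with 2 at Rcor1, which encodes CoREST (3.76 and 3.39, and 2.75 and 5.42), and 2 at Zmynd8, the stronger with 2.94 and 4.66. The 2 named Bdnf members, both Rcor1 members and the stronger Zmynd8 member missed a q-value of 0.05 in at least 1 library. None of the 13 members of the REST list or the 6 of the LSD1 list overlapped an LSD1-LKO interval, against 17.7% of all members. These counts are too small to be read as a difference from all members. Genes of NAD metabolism and hepatokines were nearest to 13 members, a ratio of 1.94, with 5 at Igf1, 3 at Nampt, the enzyme of NAD salvage, 2 at Ppargc1a and 1 at Fgf21. The strongest of this list, nearest to Nampt (4.67 and 3.86), Klb, the coreceptor gene of FGF21 (3.32 and 2.93), and Igf1 (3.32 and 2.94), overlapped no LSD1-LKO interval. Of the 13, 3 did (23.1%). The −log10 q-values of the Klb member (0.67 and 0.572) and the Igf1 member (0.756 and 0.477) did not reach a q-value of 0.05 in either library. The Fgf21 member, singled out after its values were seen and 5822 bp from the TSS, had a fold enrichment of 4.15 and 2.14 and shared 35 bp with an LSD1-LKO interval. Its second-library value lay below the lower quartile of all members (2.42), and no q-value is given for it here. Genes for mitochondrial proteins that the study listed as downregulated in LSD1-LKO liver were nearest to 95 members, a ratio of 1.46, and to 118 promoter peaks. The strongest were nearest to Nipsnap3b (5.81 and 5.14), Txnrd2, a mitochondrial thioredoxin reductase gene (7.40 and 4.63), and Mmachc (4.34 and 4.33). That list was chosen on mice of the same study and is not independent evidence of a direction. Of its 95 members, 18 overlapped an LSD1-LKO interval (18.95%), near the 17.7% of all members. The ratios of all gene lists are to length alone. Distal peaks with the mark had shares of 0.0325% for the REST list, 0.0974% for the LSD1 list, 0.357% for the NAD and hepatokine list and 2.08% for the mitochondrial list. The shares of members were 0.199%, 0.0918%, 0.199% and 1.45%. Near any protein-coding TSS, members were 1.53, 1.505 and 1.29 times as frequent as the comparison genome at 1 to 5, 5 to 10 and 10 to 50 kb.

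Large families of receptor and adhesion genes had fewer members than their length, but a larger share of members than of distal peaks with the mark. Olfactory receptor genes were nearest to 35 members, a ratio of 0.477, vomeronasal receptor genes to 28 (0.515) and cadherin and protocadherin genes to 76 (0.581). These were 0.536%, 0.429% and 1.16% of members, against 0.227%, 0.0325% and 0.260% of distal peaks with the mark (7, 1 and 8 peaks). Zinc finger protein genes were nearest to 91 (1.02), 1.39% of members against 1.88% of distal peaks with the mark. The strongest olfactory receptor member, near Olfr1356 (3.12 and 3.30), consisted of repeated 31-mers over 100% of its length. The next, both near Olfr541 (2.82 and 4.49, and 2.84 and 4.27), held no repeated 31-mer and shared 332 and 159 bp with LSD1-LKO intervals. They lay 222 and 128 bp from a control H3K4me2 interval. The strongest vomeronasal receptor members were nearest to Vmn1r191, Vmn1r30 and Vmn1r87, all with 2.90 in the second library. The strongest protocadherin members were a pair near Pcdh1 (5.57 and 5.95, and 4.23 and 6.54) and the strongest zinc finger member was near Zfp648 (5.22 and 3.99).

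Motif matches were searched in the central 500 bp on both strands. A match is a run of letters and not a binding site. The letters were AGNNGGCAG for CTCF, CAAAGTCCA for HNF4A, TTGCGCAA for C/EBP, TGTTTACTT for FOXA, TGAGTCA for AP-1, TTCAGCACC and GGACAGCGC for the left and right part of the REST site, AATCACNGC for GFI1, GCGCATGCG for NRF1, CCGGAAGTG for GABPA, TCAAGGTCA for ERRA and AAGATGGCG for YY1.

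Letters of HNF4A and C/EBP were found more often in members than in grid windows and most often in distal peaks with the mark, while the FOXA shares lay close together. HNF4A, a nuclear receptor of hepatocytes, was matched in 97 members (1.48%), 0.613% of grid windows and 3.47% of distal peaks with the mark. C/EBP, a family of liver metabolic regulators, was matched in 20 members (0.306%), 2 grid windows (0.00785%) and 0.617%. FOXA, the pioneer factors of liver, was matched in 1.19%, 1.01% and 1.30%. Members minus distal peaks with the mark differed by −1.99 points for HNF4A (95% Newcombe interval −2.74 to −1.32), by −0.311 for C/EBP (−0.672 to −0.0338) and by −0.105 for FOXA (−0.626 to 0.347). Among the 653 strongest members the shares were 3.37% for HNF4A, 0.766% for C/EBP and 2.14% for FOXA.

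CTCF, which anchors chromatin loops, was matched in 14.4% of members, 10.6% of grid windows and 18.4% of distal peaks with the mark. In windows of 40% to 50% GC the CTCF shares were 13.7% of members and 11.9% of grid windows, the HNF4A shares 1.52% and 0.688% and the AP-1 shares 10.7% and 8.15%. AP-1 was matched in 9.504%, 7.41% and 10.4% of members, grid windows and distal peaks with the mark. The left and right parts of the REST site were matched in 0.597% and 0.0459% of members and in 0.507% and 0.0903% of grid windows. GFI1 was matched in 1.39% of members and 1.02% of grid windows. NRF1 and GABPA, factors of mitochondrial genes, were matched in 4 and 9 members, 0.0612% and 0.138%. Their shares were 0.079% and 0.071% of grid windows and 0.487% and 0.52% of distal peaks with the mark. In promoter peaks with the mark, which had a median GC content of 65.4%, they were 3.71% and 4.26%. ERRA was matched in 1.53% of members, 1.11% of grid windows and 1.43% of distal peaks with the mark, and YY1 in 0.582%, 0.491% and 0.584%. The 12 intervals between classes were not adjusted for their number.

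**Figure D4:**
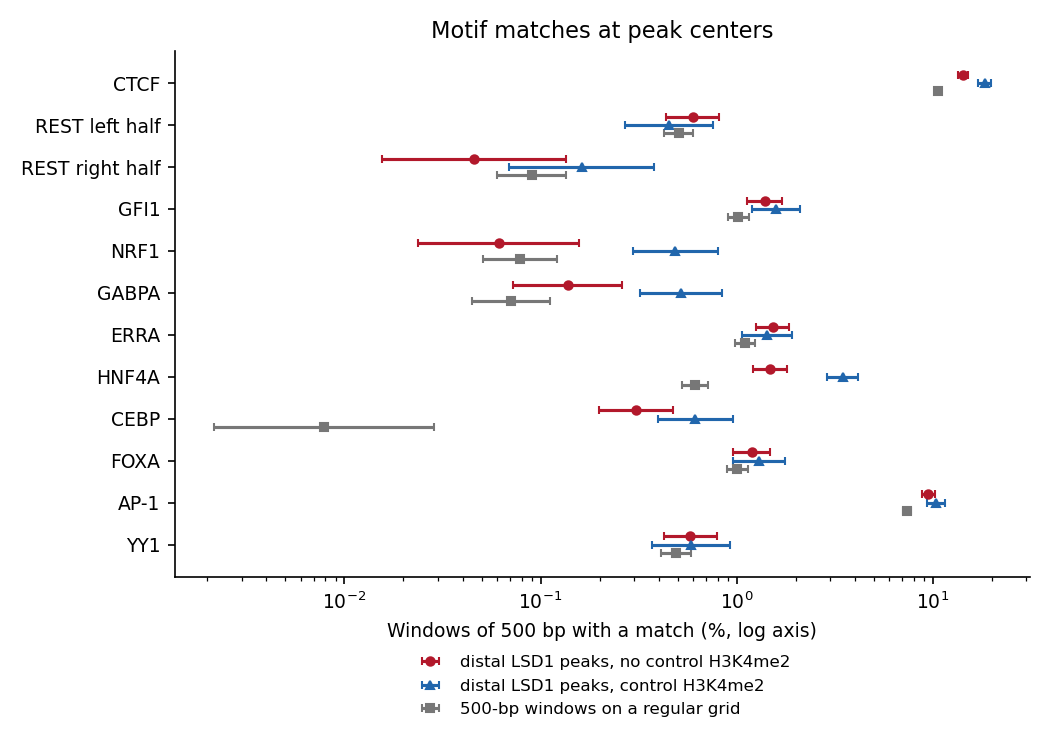
Share (%, log axis) of 500-bp windows with a motif match, with 95% Wilson intervals, in members (red circles), distal LSD1 peaks with control H3K4me2 (blue triangles) and grid windows of the comparison genome (grey squares). Members lie between the other two for HNF4A (1.48%), C/EBP (0.306%) and CTCF (14.4%), and next to grid windows for NRF1 and REST.

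The LSD1-LKO list asks whether H3K4me2 was called at these sites once LSD1 was deleted from hepatocytes. These lists hold no measure of LSD1 in LSD1-LKO liver, so the deletion itself was not checked here, and in whole liver fewer cells with the mark and less of the mark per cell cannot be told apart. An H3K4me2 interval of the LSD1-LKO list overlapped 1156 members (17.7%, 95% CI 16.8 to 18.6), against 53.8% of all LSD1 peaks and 0.719% of grid windows. With only H3K4me2 peaks at p-values no larger than 1e-05 in both libraries, in both lists, the share was 5.61% of 8386 members. The center base of 645 members (9.87%) lay inside such an interval, and those intervals covered 0.468% of the comparison genome. Because members had to lack the mark in control liver, the mirror image was taken. Of the 6275 distal LSD1 peaks without an LSD1-LKO interval, 897 (14.3%) overlapped a control interval. The share was 3.40 percentage points higher in members, and no interval is given because both sets contain the same 5378 peaks found in neither H3K4me2 list.

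Of the 2053 distal LSD1 peaks marked in 1 H3K4me2 list alone, 56.3% were marked in LSD1-LKO (95% CI 54.2 to 58.4). The same share over all distal H3K4me2 intervals without a partner in the other list, with or without LSD1, was 57.1% (16320 of 28562). When only H3K4me2 peaks with p-values no larger than 1e-05 were kept, the shares turned to 43.8% at LSD1 peaks and 45.3% over all intervals. Counted by base without this limit, 51.0% of distal bases in 1 list alone lay in LSD1-LKO intervals. The share at LSD1 peaks thus lay near that of all intervals under both settings and above that of all bases. Because the background depends on the unit counted, the share is not read as a result about members. Within 1 kb of a TSS, 42.8% of the 495 LSD1 peaks marked in 1 list alone were marked in LSD1-LKO.

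The LSD1-LKO intervals at members were weaker than those at distal peaks with control H3K4me2. Their median fold enrichment was 2.955 and 3.86 in the 2 LSD1-LKO libraries against 3.32 and 4.87, and 39.98% against 62.8% had a q-value at or below 0.05 in both. Over all LSD1-LKO intervals the medians were 3.11 and 4.65 and the share was 50.5%. The rule bars a control interval at members and the other class requires one, and the part of the rule in this contrast was not tested. Using the intervals of the second-listed H3K4me2 library of each list, 493 members (7.55%) overlapped a control H3K4me2 interval and 1441 (22.1%) an LSD1-LKO interval. No H3K4me2 interval of either library of either list overlapped 4910 members (75.1%).

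The overlap was higher near control H3K4me2. Members were a median of 16.6 kb from the nearest control interval (quartiles 3.56 and 76.0 kb). Within 1 kb of one were 942 members (14.4%), against 2.00% of grid windows, and 434 of them (46.1%) overlapped an LSD1-LKO interval. Beyond 100 kb were 1416 members (21.7%), of which 33 (2.33%) did. The grid windows, though wider than most members, had lower shares at every distance, 13.5% within 1 kb and 0.0496% beyond 100 kb. A control interval lay within 1 kb on both sides of 120 members, and 69 of these (57.5%) overlapped an LSD1-LKO interval.

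**Figure D5:**
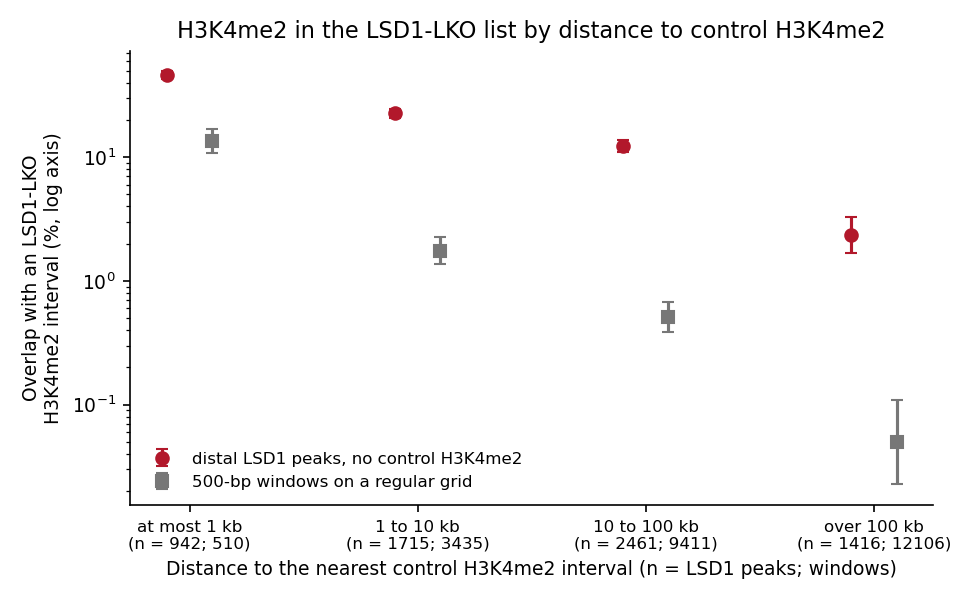
Share (%, log axis) of members (red) and of grid windows (grey) that overlap an LSD1-LKO H3K4me2 interval, by distance to the nearest control H3K4me2 interval, with 95% Wilson intervals. Members go from 46.1% within 1 kb to 2.33% beyond 100 kb and lie above the grid windows at each distance.

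The overlap also differed with LSD1 peak strength at a given distance. Beyond 10 kb from control H3K4me2, 5.94% of 3134 members with a −log10 p-value under 3 in the weaker library overlapped an LSD1-LKO interval, 18.1% of 668 with a value of 3 to 5, and 37.3% of 75 with 5 or more. Within 10 kb the shares were 25.5%, 38.1% and 57.5%. Stronger members were also wider, with median widths of 312, 389 and 582 bp beyond 10 kb, and the part of width in this order was not tested. Members at a q-value at or below 0.05 in both libraries overlapped in 47.8%.

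Of the 12 strongest members, 6 overlapped an LSD1-LKO interval. The Fam92b member shared 557 bp with one (fold enrichment 2.80 and 4.30), the Nmi member 295 bp (2.67 and 2.67), the Cndp1 member 224 bp (3.24 and 3.58) and the Cdc42ep1 member 160 bp (3.11 and 5.37). A control H3K4me2 interval lay 149 bp from the Cdc42ep1 member and 418 bp from the Cndp1 member, so both lay beside sequence marked in control liver. The nearest control interval was 8277 bp from the Fam92b member and 10820 bp from the Nmi member. The overlap with an LSD1-LKO interval was 46 bp at the Esp38 member and 8 bp at the Ermard member, so that these 2 touched the LSD1-LKO interval only at its edge. The Anxa3, Zmat4, Cyp2u1, Hsd17b3, Fam19a3 and Ndufv1 members overlapped none.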

How the data were processed

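The series holds 12 samples, of which 6 are ChIP libraries and 6 their controls, which the labels call input without antibody and the methods call IgG. Per the methods and the submitters' processing notes, the authors mapped reads to mm10 with Bowtie2, called narrow peaks per library with MACS2 and paired overlapping peaks of both libraries with bedtools 2.25.0, without pooling. The deposited fold enrichment is a ratio of ChIP to control at the summit, and the deposited −log10 p-values and −log10 q-values are the authors' MACS output. Listed p-values reach about 0.05 (−log10 p of 1.30), looser than the methods name. In the H3K4me2 lists the peak names of the first- and second-listed libraries carry different processing suffixes. Weak peaks of a single library are not in the lists. Another 12 columns of per-library values, the scores and summit offsets, were not used, so centers of intervals replaced the planned summits.

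Peaks were placed by the interval of the first-listed library. TSSs were those of 54361 protein-coding transcripts of 21853 genes (GENCODE mouse release 21, GRCm38), and an overlap was 1 bp or more. Annotation at a center was taken in the order coding exon, untranslated exon, other exon, intron of a protein-coding gene, other intron, intergenic. A base belonged to the gene with the nearest TSS. A 31-mer was called repeated when it occurred more than once in the 21 chromosomes on either strand. Shares have Wilson and differences Newcombe 95% intervals. Scripts used Python 3.11.15, scipy 1.17.1, pandas 2.3.3 and numpy 2.4.6. Overlaps, distances, 31-mer counts and intervals were tested on simulated data and against bedtools 2.31.1.

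Members and gene lists were chosen with earlier results of these data known. The text names the 12 members with the highest −log10 p-value in their weaker library, the 6 highest that overlap an LSD1-LKO interval, the 5 genes nearest to most members (a tie at 8 members added 1), up to 3 members of each gene list by the same rank, and the 3 peaks next to each limit. Counts and ratios to length are given for all gene lists. For the share of members, the LSD1-LKO overlap and the class differences, 8 alternatives were fixed and 2 were added after seeing the data.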

Additional observations from a re-analysis of the deposited data

How the results depend on the processing

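No paired analysis was possible because the lists carry no replicate numbers and hold no value per animal. The number of members (6534) lay between 5592 and 8386 under the alternatives, except with LSD1 peaks at p 1e-05 in both libraries (235) or, chosen after seeing the data, at q 0.05 in both (316), which test fewer peaks by construction. The share of members with LSD1-LKO H3K4me2 (17.7%) was 51.1% and 47.8% under these 2 settings, 16.4% with a TSS limit of 5 kb, 5.61% with H3K4me2 peaks at p 1e-05, 12.9% when control H3K4me2 within 1 kb barred membership, 14.5% with an overlap of 50% of the narrower interval, 14.7% when either control library barred membership, and 19.3% without LSD1 peaks of mostly repeated 31-mers, also chosen after seeing the data. With the second-listed library of all lists in place of the first it was 18.8%. It thus depends on peak strength and on the H3K4me2 threshold, and the cause was not tested.

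The share marked in LSD1-LKO among distal peaks marked in 1 list (56.3%) turned to 43.8% with H3K4me2 peaks at p 1e-05. It was 59.7% with LSD1 peaks at p 1e-05, 65.3% when control H3K4me2 within 1 kb barred membership, 62.6% when either control library did, and 63.0% with the second-listed library. The difference in q-value between classes was 0 points among LSD1 peaks at p 1e-05, all of which reached q 0.05 by construction, and kept its direction and an interval without 0 in the other settings. The difference in repeats did so in every setting run, from 3.68 to 9.28 points. Neither difference could be formed within the peaks selected on that same measure. Unknown depth limits what can be said of members that were absent from the H3K4me2 lists.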
